A study of Danio rerio with 18 samples.

Results

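Expression of 48 genes of DNA replication and cell division was followed across 18 libraries of whole zebrafish larvae, in which colonization of the gut and loss of *myd88* were compared. The genes were taken from a list of symbols that was chosen with earlier results of these data known, and all 48 were found. They occupied 49 of the 31388 rows of the count tables because *rrm2* has 2 rows, and 1 symbol, *e2f1*, is written in capitals there. All 49 rows were among the 23367 that passed the filter on low counts and were tested. Each row is called a gene below, with the *rrm2* rows told apart by their identifiers, ENSDARG00000020711 and ENSDARG00000078069. Reads of 50 nucleotides may be shared between these copies, so the split of reads between them is uncertain.

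The libraries fell into 6 groups of 3: *myd88* mutants that were conventionalized (CONVD) or germ-free (GF), and wildtype (WT) larvae that were mono-associated with *Chryseobacterium* ZOR0023, mono-associated with *Exiguobacterium* ZWU0009, CONVD or GF. Each library came from a pool of 15 larvae at 5 days post fertilization (DPF). All larvae were surface sterilized as embryos, and the colonized groups met bacteria from 3 DPF, either those in the water of conventionally reared larvae or a single strain. The mutants carry the hu3568 allele on both chromosomes (Myd88-/-), a line that was outcrossed to the ABTL wildtype strain, and the WT larvae were ABTL. The WT larvae were not siblings of the mutants, so genotype and parentage cannot be told apart. The study calls its pools biological replicates but does not name the crosses or dishes behind them. A p-value here sets a difference between groups only against the spread of such pools, which the main fit estimates over all 6 groups. Whole larvae were used, and in such bulk RNA fewer dividing cells and less RNA per dividing cell cannot be told apart.

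A dividing cell first loads the Mcm helicase ring onto its replication origins, a step that needs Cdc6 and Cdt1. In S phase the ring is activated by Cdc45 and the GINS complex, and DNA polymerases copy both strands behind it. Cyclins and their kinases then drive the cell into mitosis, where the spindle is built by kinesins and Aurora kinases and the checkpoint proteins hold back the separation of chromatids until every chromosome is attached. Transcripts of the replication genes are known to peak around the start of S phase and those of the mitosis genes around G2 and M phase. In larvae of this age cycling cells are found in the retinal margin, the brain, the gut epithelium and the blood forming tissue, among others. The roles given for single genes are those established for their vertebrate and yeast counterparts.

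Total counts ranged from 6404744 to 23600976 per library, and were 12236848 to 18214050 in CONVD mutants, 13542231 to 16277918 in GF mutants, 6404744 to 11582884 in *Chryseobacterium*, 8057429 to 14578628 in *Exiguobacterium*, 11787698 to 23600976 in CONVD and 7946202 to 10999402 in GF WT larvae. The 49 genes together took between 0.133% and 0.167% of the counts of a library. The lowest count of any of them was 12, for *ccnb2*, and the highest 4242, for *mki67*. The first principal component of all genes held 55.6% of the variance and parted the mutants from the WT larvae, and *Chryseobacterium* libraries 1 and 3 stood apart on the next components. The level of *myd88* itself in CPM, which are counts scaled to a common library size, was 3.09 to 3.81 in GF mutants, against 9.12 to 12.4 in GF WT larvae, and 3.91 to 4.60 in CONVD mutants, against 4.32 to 5.80 in CONVD WT larvae. Counts per gene do not show the mutation itself. CPM were not corrected for gene length, so levels are compared between groups and not between genes.

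In 3 of the 4 WT groups most of the 49 genes were highest in the same pool. In CONVD WT larvae 40 of the 49 genes were highest in library 2, and 38 were lowest in library 1. In *Exiguobacterium* larvae 40 were likewise highest in library 2, and 31 were lowest in library 3, and in GF WT larvae 33 were highest in library 3 and 35 lowest in library 1. In *Chryseobacterium* larvae and in both mutant groups the highest and the lowest values were spread over the libraries, with at most 24 genes in any *Chryseobacterium* and at most 22 in any mutant library. The summed level of all 49 genes was 1341 to 1390 CPM in CONVD mutants and 1428 to 1441 CPM in GF mutants, against 1415 to 1645 CPM in CONVD and 1428 to 1678 CPM in GF WT larvae. The median coefficient of variation over the genes was 4.07% in CONVD mutants and 5.49% in GF mutants. The counting spread, taken as 1 over the square root of the mean count, had medians of 6.19% and 6.06%. In WT larvae the coefficient of variation was 8.40% in *Chryseobacterium*, 10.8% in *Exiguobacterium*, 9.03% in CONVD and 10.4% in GF larvae. The counting spread there was 7.99%, 7.35%, 5.22% and 7.16%. A median of SDs from 3 libraries tends to run below the true spread, so these measures are not on the same scale. Genes that share the ups and downs of a pool are not independent of each other, which bears on every count of genes below.

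The genes differed most between genotypes, as did all genes tested. In GF larvae 17 of the 49 genes were lower and 1, *mcm2*, was higher in mutants than in WT larvae, where 31.3% of all genes tested were called in either direction, and in CONVD larvae 12 were lower and 0 higher, where 29.7% were called. A gene is counted as called here when its Benjamini-Hochberg adjusted p from edgeR was below 0.05 and its fold change at least 1.3. By direction, 3519 of the 23367 genes tested were lower and 3804 (16.3%) higher in GF mutants. In CONVD mutants 3383 (14.5%) were lower and 3559 (15.2%) higher. Taken in both directions, the 49 genes were thus called at a rate near that of all genes, and nearly all their calls were lower. In GF larvae the libraries of the 2 genotypes did not overlap for 19 of the 49 genes, which lay lower in mutants, and for 8, which lay higher, where 26.2% and 26.8% of all genes did so, and in CONVD larvae for 23 and 4 genes, where 27.6% and 28.4% did so. The median log2 difference of the 49 genes was -0.098 in GF and -0.23 in CONVD larvae, against -0.010 and -0.0072 over all genes tested. For the 0 genes called higher in CONVD larvae, 2 had an unadjusted p below 0.05 with edgeR, where 26% of all genes did, and DESeq2 also called 0.

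The calls were unevenly spread over the roles of the genes. Over all 23367 genes tested, 3519 were called lower in GF mutants and 3383 (14.5%) in CONVD mutants. The counts of each role are to be read against these shares. Of the 16 mitosis genes 11 were called lower and 0 higher in GF mutants, and 7 lower and 0 higher in CONVD mutants. All 16 had a difference below 0 in both conditions, with a median of -0.48 in GF and -0.33 in CONVD larvae. Of the 12 genes of the helicase and its loading, 1 was called higher (*mcm2*) and 1 lower (*cdc6*) in GF mutants, and 10 lay above 0 with a median of 0.17, while in CONVD mutants 1 was called lower, 6 lay above 0 and the median was -0.020. Of the 13 genes of polymerases, fork and nucleotide supply, 1 was called lower in GF and 2 in CONVD mutants, with medians of -0.027 and -0.069. Of the 8 cyclins, kinases and S phase regulators, 4 were called lower in GF and 2 in CONVD mutants, with medians of -0.21 and -0.31. No test was run between the roles.

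**Figure D1:**
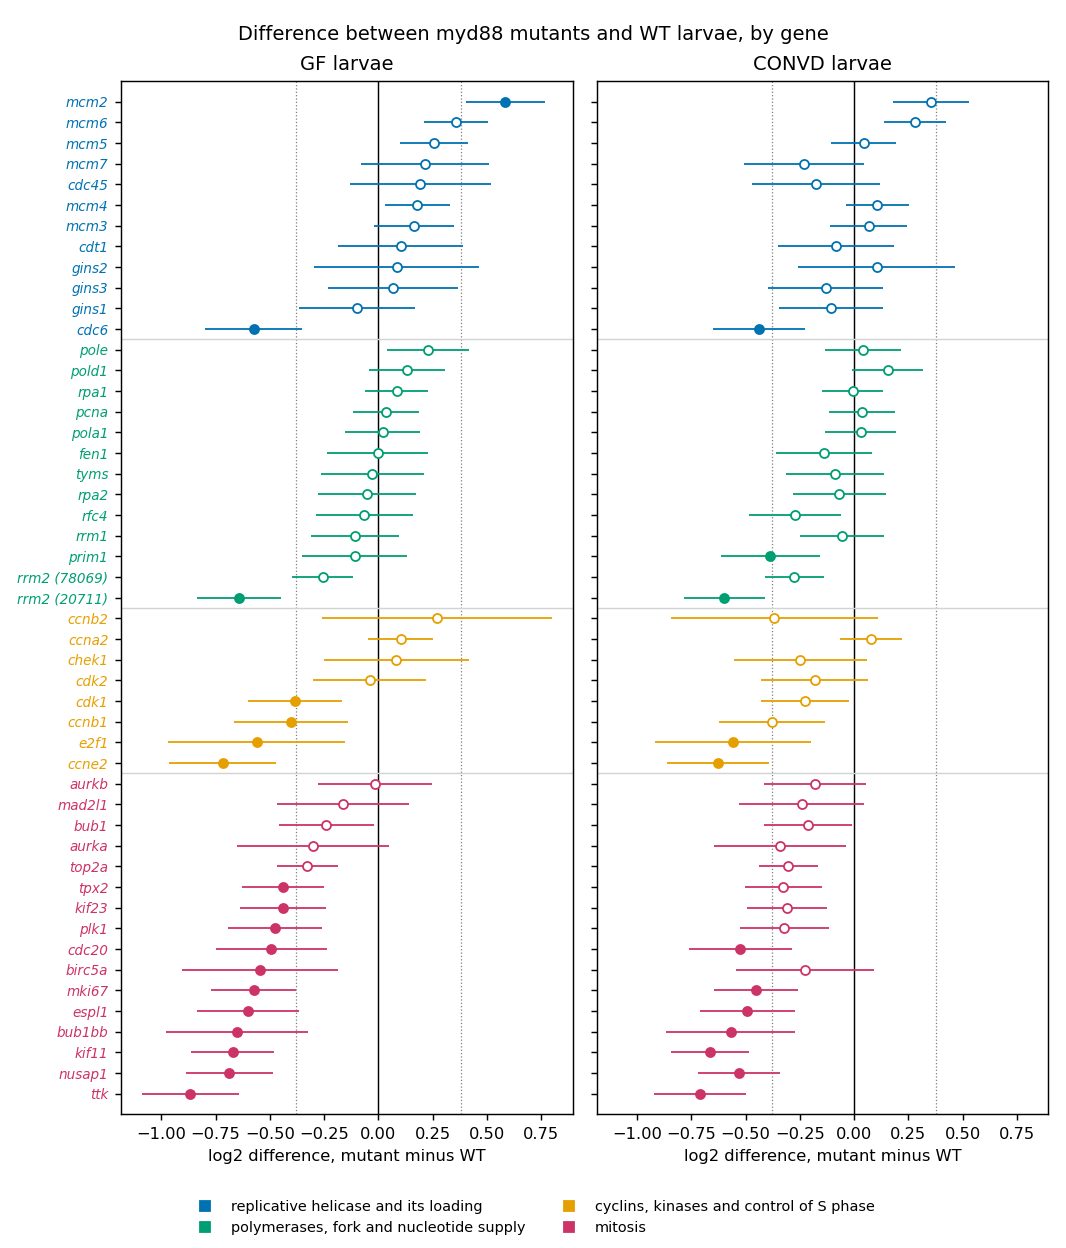
Log2 difference of each of the 49 genes between *myd88* mutants and WT larvae in GF (left) and CONVD (right) larvae, with the 95% confidence interval from edgeR as a bar, genes ordered by role and by their value in GF larvae. Filled points were called, open points were not, and dotted lines mark a fold change of 1.3; all 16 mitosis genes lie left of 0 in both panels, and *mcm2* lies furthest to the right.

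Among the mitosis genes, the spindle checkpoint kinase gene *ttk* had the largest difference. Its levels were 10.5, 11 and 12.4 CPM in GF mutants, against 19.3, 19.8 and 22.5 CPM in GF WT larvae, and 10.8, 11.6 and 11.6 CPM in CONVD mutants, against 16.8, 19.3 and 19.1 CPM in CONVD WT larvae. All mutant libraries lay below all WT libraries, with log2 differences of -0.87 (SE 0.11, edgeR adjusted p = 2.2e-07) in GF and -0.71 (SE 0.10, adjusted p = 2.27e-06) in CONVD larvae. The kinesin gene *kif11*, whose product pushes the spindle poles apart, stood at 21.0, 26.1 and 25.5 CPM in GF mutants, against 33.5, 40.3 and 42.1 CPM in GF WT larvae, and at 23.9, 25.1 and 24.8 CPM in CONVD mutants, against 34.5, 43.0 and 38.3 CPM in CONVD WT larvae. The genotypes did not overlap in either condition, and the differences were -0.67 (SE 0.09, adjusted p = 1.08e-06) and -0.66 (SE 0.09, adjusted p = 5.33e-07).

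The gene *nusap1*, which encodes a protein that bundles spindle microtubules, was at 23.3, 21.6 and 22.7 CPM in GF mutants, against 32.6, 36.9 and 39.7 CPM in GF WT larvae. In CONVD larvae it was at 22.4, 23.5 and 22.8 CPM in mutants, against 29.5, 38.0 and 30.7 CPM in WT larvae. It thus lay lower in each mutant library than in any WT library of the same condition, by -0.69 (SE 0.10, adjusted p = 1.55e-06) and -0.53 (SE 0.09, adjusted p = 3.18e-05). The proliferation marker *mki67* had 107, 114 and 120 CPM in GF mutants, against 149, 181 and 179 CPM in GF WT larvae, and 115, 118 and 112 CPM in CONVD mutants, against 133, 177 and 160 CPM in CONVD WT larvae. Its libraries did not overlap between genotypes either, with differences of -0.57 (SE 0.09, adjusted p = 6.25e-05) and -0.45 (SE 0.09, adjusted p = 0.000571). The separase gene *espl1*, whose product cuts the rings that hold chromatids together, had 11.3, 11.8 and 13.1 CPM in GF mutants, against 18.5, 16.9 and 19.5 CPM in GF WT larvae, and 12.4, 12.4 and 12.6 CPM in CONVD mutants, against 15.7, 18.7 and 17.9 CPM in CONVD WT larvae. Its differences were -0.60 (SE 0.11, adjusted p = 8.82e-05) and -0.49 (SE 0.11, adjusted p = 0.000422).

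The topoisomerase gene *top2a*, whose product untangles sister chromatids, was at 65.6, 65.4 and 65.6 CPM in GF mutants, against 78.5, 82.7 and 85.8 CPM in GF WT larvae, and at 64.5, 64.2 and 65.2 CPM in CONVD mutants, against 72.1, 84.7 and 81.7 CPM in CONVD WT larvae. All mutant libraries were below all WT libraries and the adjusted p-values were 0.000251 and 0.00043, but the differences of -0.33 (SE 0.07) and -0.30 (SE 0.07) fell short of a fold change of 1.3, so it was not called. Among the other mitosis genes called in both conditions were *bub1bb*, which encodes the checkpoint protein BubR1, with differences of -0.65 in GF and -0.57 in CONVD larvae, and *cdc20*, which encodes the activator of the ubiquitin ligase that starts anaphase, with -0.49 and -0.52. Of these, *bub1bb* overlapped by library in CONVD larvae. Called in GF larvae only were *plk1* (-0.48), a kinase gene of centrosome maturation, *tpx2* (-0.44), whose product activates Aurora A, *kif23* (-0.44), a motor gene of cytokinesis, and *birc5a* (-0.55), the survivin gene of the chromosomal passenger complex. In CONVD larvae these 4 genes had differences of -0.32, -0.33, -0.31 and -0.22, the first 3 with adjusted p-values of 0.00988, 0.00274 and 0.0062 but below the fold threshold, and the fourth with 0.252. The Aurora kinase genes *aurka* (-0.30 and -0.34) and *aurkb* (-0.01 and -0.18), and the checkpoint genes *bub1* (-0.24 and -0.21) and *mad2l1* (-0.16 and -0.24), were not called in GF or in CONVD larvae.

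The helicase genes did not follow the mitosis genes. The level of *mcm2* was 68.0, 70.0 and 67.3 CPM in GF mutants, against 39.6, 48.5 and 49.3 CPM in GF WT larvae, with no overlap and a log2 difference of 0.58 (SE 0.09, edgeR adjusted p = 6.22e-06). In CONVD larvae it was 64.2, 61.2 and 59.8 CPM in mutants, against 43.9, 52.4 and 47.9 CPM in WT larvae, again without overlap, and the difference of 0.35 (SE 0.08, adjusted p = 0.00122) was below the fold threshold. Mcm2 is 1 subunit of a ring that is built from equal numbers of each Mcm subunit. The genes of the other subunits had differences of 0.36 (*mcm6*), 0.26 (*mcm5*), 0.21 (*mcm7*), 0.18 (*mcm4*) and 0.17 (*mcm3*) in GF larvae, of which *mcm6*, *mcm5* and *mcm4* had adjusted p-values of 0.000187, 0.00702 and 0.044. All 6 Mcm genes had every GF mutant library above every GF WT library. In CONVD larvae the differences were 0.28 (*mcm6*), 0.04 (*mcm5*), -0.23 (*mcm7*), 0.11 (*mcm4*) and 0.07 (*mcm3*), and of these *mcm6* alone had an adjusted p below 0.05 (0.00163).

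For *mcm5* the values were 55.1, 49.4 and 52.4 CPM in GF mutants, against 40.9, 41.5 and 49.0 CPM in GF WT larvae, and 45.3, 45.1 and 43.0 CPM in CONVD mutants, against 39.8, 46.8 and 42.4 CPM in CONVD WT larvae. The genotypes were thus parted in GF larvae, by a margin smaller than the spread within the GF WT group, and overlapped in CONVD larvae. The loading factor gene *cdc6* went the other way, with differences of -0.58 (SE 0.11, adjusted p = 8.55e-05) in GF and -0.44 (SE 0.10, adjusted p = 0.000938) in CONVD larvae and no overlap in either. Its partner in loading, *cdt1*, differed by 0.10 and -0.08, the helicase activator *cdc45* by 0.19 and -0.18, and *gins1*, *gins2* and *gins3*, whose products bind the ring with Cdc45, by -0.10 to 0.08 in GF and -0.13 to 0.10 in CONVD larvae, with none called.

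**Figure D2:**
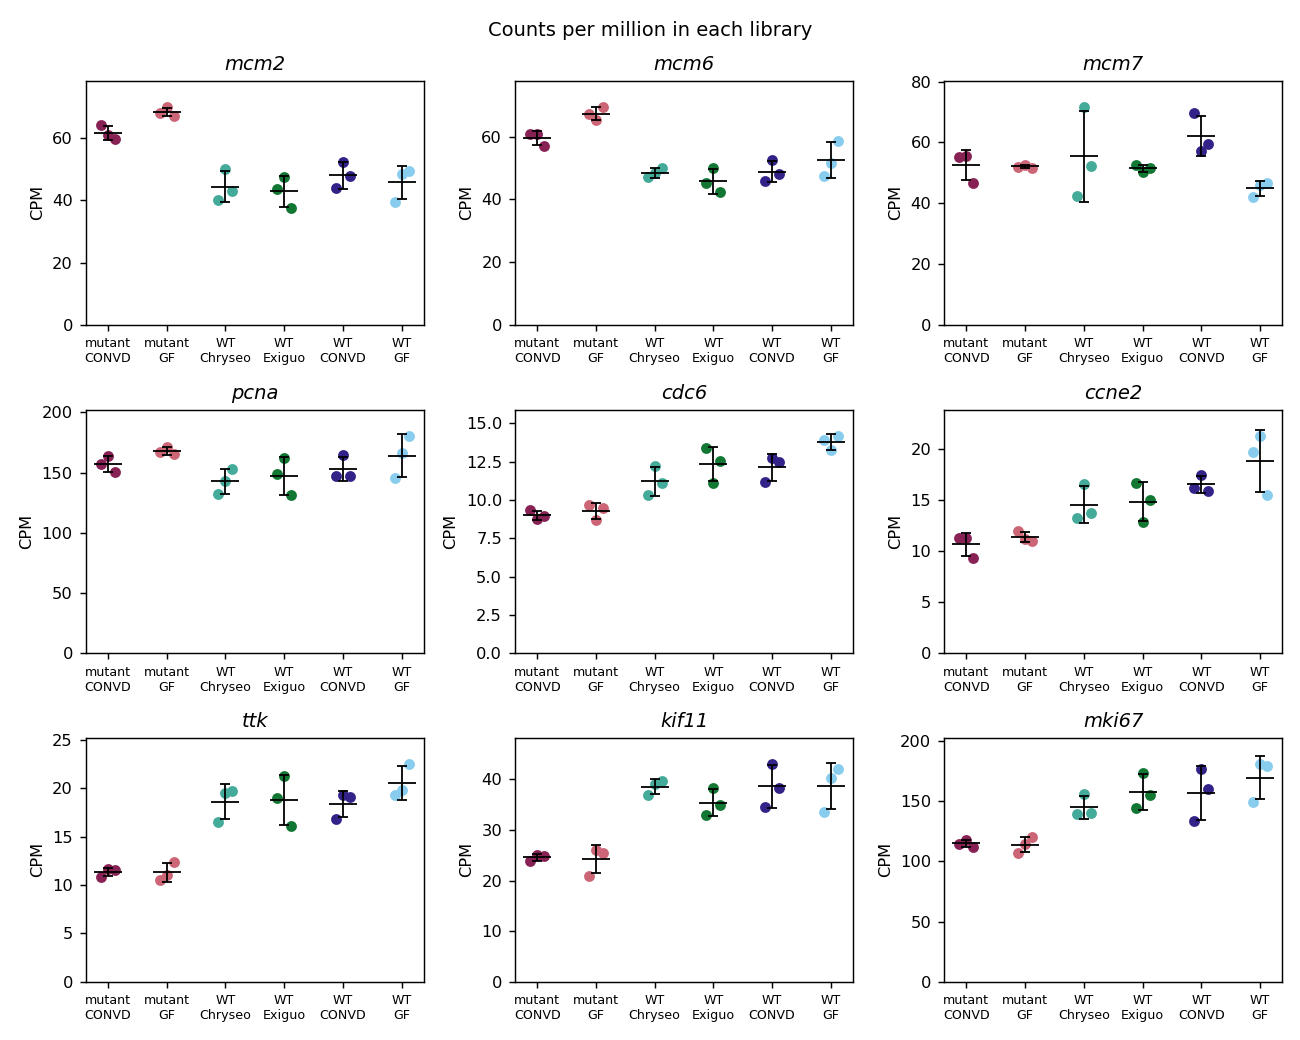
CPM of 9 of the genes in each library, with the mean and SD of each group of 3 in black. *mcm2* lies higher and *cdc6*, *ccne2*, *ttk*, *kif11* and *mki67* lie lower in every mutant library than in any WT library of the same condition, while *pcna* overlaps; *mcm6*, *mcm7* and *cdc6* were added to the plot after their values were seen.

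The genes of the replication fork differed little between genotypes. The sliding clamp gene *pcna* had 167, 172 and 166 CPM in GF mutants, against 146, 166 and 181 CPM in GF WT larvae, and 157, 164 and 151 CPM in CONVD mutants, against 147, 165 and 147 CPM in CONVD WT larvae. The libraries overlapped in both conditions, and the differences were 0.03 (95% confidence interval -0.12 to 0.19) and 0.04 (-0.11 to 0.19). The polymerase genes *pola1*, *pold1* and *pole* differed by 0.02, 0.13 and 0.23 in GF and by 0.03, 0.15 and 0.04 in CONVD larvae, of which *pole*, the gene of the leading strand polymerase, had an adjusted p of 0.0422 in GF larvae. The primase gene *prim1* was called lower in CONVD mutants (-0.39, SE 0.11, adjusted p = 0.00538) and had a difference of -0.11 in GF larvae. The clamp loader gene *rfc4* (-0.06 and -0.27), the flap endonuclease gene *fen1* (-0.0036 and -0.14) and the genes of the single strand binding proteins *rpa1* (0.08 and -0.01) and *rpa2* (-0.05 and -0.07) were not called.

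The clearest difference in this role lay in a single row of *rrm2*, a gene of nucleotide supply. Ribonucleotide reductase makes deoxynucleotides from a large and a small subunit, encoded by *rrm1* and *rrm2*. The row ENSDARG00000020711 of *rrm2* had 34.7, 36.2 and 38.1 CPM in GF mutants, against 46.5, 60.9 and 63.0 CPM in GF WT larvae, and 36.1, 37.6 and 35.6 CPM in CONVD mutants, against 49.1, 60.0 and 55.5 CPM in CONVD WT larvae. The genotypes did not overlap, and the differences were -0.64 (SE 0.09, adjusted p = 5.08e-06) and -0.60 (SE 0.09, adjusted p = 7.23e-06). The other *rrm2* row, ENSDARG00000078069, was lower by -0.26 (SE 0.07, adjusted p = 0.00326) and -0.27 (SE 0.07, adjusted p = 0.0013), also with no overlap and below the fold threshold. The large subunit gene *rrm1* differed by -0.11 and -0.06, and the thymidylate synthase gene *tyms* by -0.03 and -0.09, with overlapping libraries.

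Of the cyclins and their kinases, the cyclin E gene *ccne2*, which acts at the entry into S phase, had 12, 11.2 and 11 CPM in GF mutants, against 19.7, 21.3 and 15.4 CPM in GF WT larvae, and 11.3, 11.3 and 9.36 CPM in CONVD mutants, against 16.2, 17.5 and 15.9 CPM in CONVD WT larvae. Every mutant library lay below every WT library, by -0.72 (SE 0.12, adjusted p = 1.54e-05) and -0.63 (SE 0.11, adjusted p = 5.04e-05). The transcription factor gene *e2f1*, which drives S phase genes, was lower by -0.56 in both conditions (SE 0.20 and 0.18, adjusted p = 0.0228 and 0.0105). The mitotic cyclin gene *ccnb1* had 15.6, 15.2 and 16.7 CPM in GF mutants, against 16.5, 22.9 and 23.7 CPM in GF WT larvae, and 14.9, 16.4 and 17.7 CPM in CONVD mutants, against 18, 24.5 and 20.1 CPM in CONVD WT larvae. It was called in GF larvae (-0.40, SE 0.13, adjusted p = 0.012), where 1 mutant and 1 WT library overlapped, and fell just short of the fold threshold in CONVD larvae (-0.38, SE 0.12, adjusted p = 0.0115), where none overlapped.

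The mitotic kinase gene *cdk1* had 18.6, 21.0 and 19.2 CPM in GF mutants, against 24.1, 25.6 and 27.0 CPM in GF WT larvae, and 19.7, 21.4 and 20.7 CPM in CONVD mutants, against 20.9, 27.3 and 23.1 CPM in CONVD WT larvae. The genotypes overlapped in CONVD larvae only, and the gene was called in GF (-0.38, SE 0.11, adjusted p = 0.00384) and not in CONVD larvae (-0.23, SE 0.10, adjusted p = 0.0633). The cyclin A gene *ccna2* (0.10 and 0.08), the S phase kinase gene *cdk2* (-0.04 and -0.18), the checkpoint kinase gene *chek1* (0.08 and -0.25) and *ccnb2* (0.27 and -0.37), whose low counts gave an SE of 0.26 and 0.23, were not called.

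Of the 17 genes lower in GF mutants, 11 were also called lower in CONVD mutants, which is 64.7% of the calls in GF and 91.7% of those in CONVD larvae. Over all genes tested, 69.3% of the genes lower in GF and 72.1% of those lower in CONVD larvae were lower in both. The 2 comparisons share no library. A test of whether the genotype difference itself changed with colonization called 0 of the 49 genes with edgeR, where 0.813% of all genes were called. At an unadjusted p below 0.05 it found 1 gene, *mcm7*, where 7.38% of all genes passed, and DESeq2 called 0. A call in GF and none in CONVD larvae, as for *mcm2* or *birc5a*, is therefore not shown to be a difference between conditions.

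Some of the genotype calls ended when a single library was left out. Where the adjusted p stayed below 0.05, a call ended because the difference fell below the fold threshold. In GF larvae, leaving out WT library 2 ended the calls of *ccnb1* (-0.34, adjusted p = 0.0574), *birc5a* (-0.45, 0.0691), *cdc20* (-0.35, 0.0329, below the fold threshold) and *e2f1* (-0.50, 0.079), and leaving out WT library 3 those of *ccnb1* (-0.31, 0.0807), *plk1* (-0.33, 0.0118), *tpx2* (-0.34, 0.00539) and *cdk1* (-0.35, 0.0195). Without mutant GF library 1 the call of *cdk1* ended (-0.35, 0.0207), without library 2 those of *birc5a* (-0.45, 0.0637) and *e2f1* (-0.52, 0.0647), and without library 3 those of *kif23* (-0.37, 0.00514), *cdk1* (-0.37, 0.0147) and *e2f1* (-0.47, 0.0806). In CONVD larvae, the calls of *prim1* (-0.34, 0.038) and *mki67* (-0.36, 0.00178) ended without WT library 2, that of *e2f1* (-0.41, 0.0963) without WT library 3, and that of *prim1* (-0.34, 0.0305) without mutant library 3. Other genes gained a call: *mcm6* was called higher in GF mutants without WT library 3 (0.44, adjusted p = 3.09e-05) and *mcm2* higher in CONVD mutants without WT library 2 (0.42, 0.000833). In CONVD mutants *ccnb1* was called lower without WT library 1 (-0.47, 0.00244), WT library 3 (-0.41, 0.0171) or mutant library 3 (-0.43, 0.0125), and *aurka* without WT library 1 (-0.41, 0.0398). DESeq2 did not call *e2f1* in GF larvae (adjusted p = 0.0585). The calls of *ttk*, *kif11*, *nusap1*, *ccne2* and the row ENSDARG00000020711 of *rrm2* held in both conditions in each of the 14 other settings run for them. Among these settings, the one without a fold threshold could not end a call.

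The summed levels show the same uneven pattern per library. The 16 mitosis genes summed to 382 to 391 CPM in CONVD mutants and 365 to 384 CPM in GF mutants, against 455 to 563 CPM in CONVD and 479 to 571 CPM in GF WT larvae. The 12 helicase genes summed to 348 to 369 CPM in CONVD mutants and 394 to 405 CPM in GF mutants, against 337 to 357 CPM in CONVD and 307 to 362 CPM in GF WT larvae. The mitosis sum over the helicase sum was 1.04 to 1.1 in CONVD mutants and 0.902 to 0.971 in GF mutants, and 1.35 to 1.64 over the 12 WT libraries. The ratio itself depends on gene lengths and on the abundant genes of each sum, and the pattern was noticed in these data, so it is given as a description with no test.

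**Figure D3:**
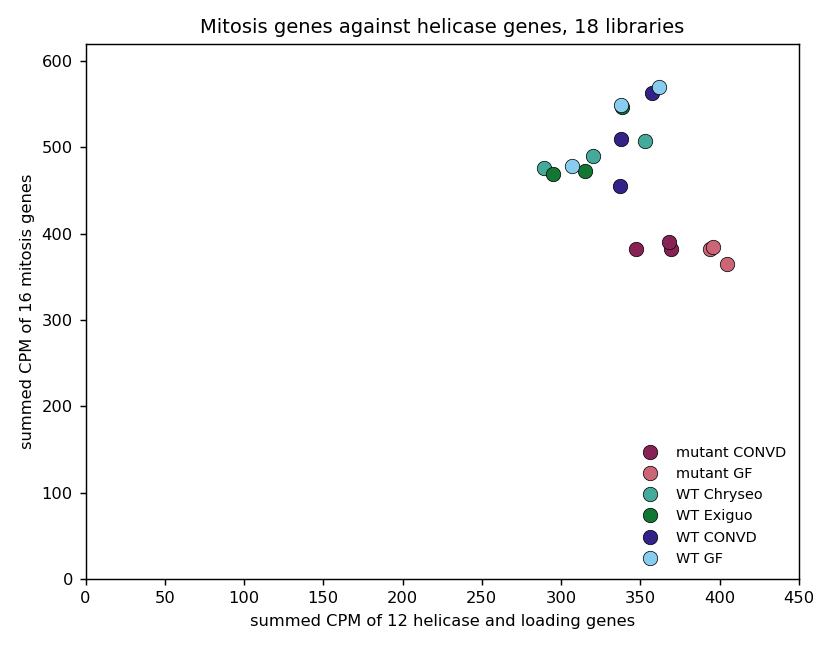
Summed CPM of the 16 mitosis genes against the summed CPM of the 12 genes of the helicase and its loading, with 1 point per library and the 6 groups in colour. The 6 mutant libraries lie at 365 to 391 CPM of mitosis genes, below all 12 WT libraries, and the GF mutants lie furthest to the right, at 394 to 405 CPM of helicase genes.

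Genes of the same pathways beyond the 48 symbols were counted from lists of replication, mitosis, G1 and arrest genes. These lists too were chosen with earlier results of these data known, so their counts are a description and not independent support. Their counts are to be read against the 31.3% and 29.7% of all genes called between genotypes in GF and CONVD larvae. Of 72 other mitosis genes tested, 32 were lower and 2 higher in GF mutants, and 33 lower and 1 higher in CONVD mutants, with a median difference of -0.35 in both. Among them *aspm*, which encodes a spindle pole protein, differed by -1.19 (SE 0.09) in GF and -1.04 (SE 0.09) in CONVD larvae, and *kif20ba*, a kinesin gene of cytokinesis, by -0.80 (SE 0.13) and -0.90 (SE 0.12). Of the others with the lowest p-values, the spindle microtubule gene *dlgap5* (-0.75 and -0.47), the centromere motor gene *cenpe* (-0.69 and -0.64) and *anln* (-0.54 and -0.63), a gene of cytokinesis, were also called lower in both, and *CIT*, likewise of cytokinesis, in CONVD mutants (-0.49). The sum over these 72 genes, in which abundant genes weigh most, was 2281 to 2329 CPM in GF mutants. In GF WT larvae it was 2355 to 2560 CPM, without overlap. In CONVD larvae it was 2296 to 2365 CPM in mutants, against 2349 to 2464 CPM in WT larvae, which overlapped. Of 52 other replication genes, 5 were lower and 3 higher in GF mutants, and 6 lower and 2 higher in CONVD mutants, with medians of -0.11 and -0.12, so that fewer were called in either condition than the share over all genes would give. The thymidine kinase gene *tk1*, another gene of nucleotide supply, was lower in both (-0.64 and -0.72), as was *mcm9*, a helicase gene of DNA repair (-0.86 and -0.52), and *mcmbp*, whose product binds Mcm subunits, was higher in both (0.51 and 0.46). Called in 1 condition among those with the lowest p-values were *pole4* (0.57), a subunit gene of polymerase epsilon, in GF larvae, and *slbp* (-0.51), the histone mRNA binding protein gene, and *dhfr* (0.44), the dihydrofolate reductase gene, in CONVD larvae.

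Of 24 regulators of G1 and E2F, 4 were higher and 4 lower in GF mutants, and 3 higher and 4 lower in CONVD mutants, close to the share of all genes called. The growth regulator gene *myca* was lower (-0.68 and -0.73), and the retinoblastoma gene *rb1* (0.54 and 0.42), which restrains E2F, and the G1 kinase gene *cdk4* (0.70 and 0.52) were higher in mutants of both conditions. The E2F partner gene *tfdp1a* was higher in GF mutants (0.45), and *mycb*, another Myc gene, was lower in both (-0.77 and -1.17). Of 28 arrest and checkpoint genes, 4 were higher and 7 lower in GF mutants, and 5 higher and 3 lower in CONVD mutants, a share above that of all genes called in GF and close to it in CONVD larvae. The gene *rrm2b*, which encodes another small subunit of ribonucleotide reductase, was higher in both (0.70 and 0.83). So were *mdm2* (0.49 and 0.49) and the cyclin kinase inhibitor gene *cdkn1a* (0.53 and 1.05). The gene *ccng2*, which encodes cyclin G2, was lower in both (-1.08 and -0.41), the antiproliferative gene *btg2* lower in GF mutants (-2.17), and *cdkn1cb*, another inhibitor gene, higher in CONVD mutants (1.14).

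Markers of tissues and cell types were counted in the same way, against the same 31.3% and 29.7% of all genes called. Some of them mark differentiated cells, and none of the lists was used to tell dividing from other cells. All 9 retinal progenitor markers had every GF mutant library below every GF WT library, 7 of them called, and 7 did so in CONVD larvae, 3 of them called, with *rx2* at -1.41 and -1.53. Their summed level was 202 to 219 CPM in GF mutants, against 272 to 294 CPM in GF WT larvae, and 218 to 220 CPM in CONVD mutants, against 267 to 286 CPM in CONVD WT larvae. Of 15 neural progenitor markers, 2 were called lower in GF and 0 in CONVD mutants, a smaller share than over all genes, and they summed to 717 to 741 CPM in GF mutants, against 799 to 877 CPM in GF WT larvae, and to 737 to 753 CPM in CONVD mutants, against 797 to 847 CPM in CONVD WT larvae. Of 9 red blood cell markers listed, 8 were found and 7 tested. Of the 7, 3 were lower and 1 higher in GF mutants and 4 lower and 1 higher in CONVD mutants. Their sums were 1201 to 1449 CPM in GF mutants, against 1532 to 2700 CPM in GF WT larvae. In CONVD mutants they were 1218 to 1288 CPM, against 1620 to 2072 CPM in CONVD WT larvae.

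Of 6 blood stem cell markers 5 passed the filter on low counts, and of these 1 was called lower in GF and 0 in CONVD mutants. In GF larvae 3 of the 5 lay above 0, with a median of 0.12, and in CONVD larvae 1 did, with a median of -0.088. Their sums were 48.5 to 52.1 CPM in GF mutants, against 56.2 to 61.6 CPM in GF WT larvae. In CONVD mutants they were 46.3 to 50.2 CPM, against 54.3 to 56.6 CPM in CONVD WT larvae. Of 6 germ cell markers only 3 passed the filter on low counts and were tested and summed. In each condition 1 of the 3 was lower. The sums were 21.9 to 24.5 CPM in GF mutants, against 26.9 to 28.2 CPM in GF WT larvae. In CONVD mutants they were 21.6 to 24.4 CPM, against 26.4 to 30.0 CPM in CONVD WT larvae. Most markers of the gut epithelium were higher in mutants. Of 7 such markers 6 were called higher in GF and 4 in CONVD mutants. In each condition 1 of the 7 lay below 0, at -0.042 in GF and -0.20 in CONVD larvae. The 7 summed to 1633 to 1788 CPM in GF mutants, against 893 to 1103 CPM in GF WT larvae. In CONVD mutants they summed to 1288 to 1450 CPM, against 899 to 1066 CPM in CONVD WT larvae. They were not used to tell dividing from other gut cells. No marker of these 6 lists was at 0 in every library. The part of these markers in the levels of the division genes was not tested.

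Colonization gave no call among the 49 genes with edgeR. Called higher or lower were 0 genes in CONVD against GF WT larvae, where 1.63% of all genes tested were called, 0 in *Exiguobacterium* against GF (0.757% of all genes), 0 in *Chryseobacterium* against GF (1.51%), and 0 in CONVD against GF mutants (0.077%). The 3 comparisons in WT larvae share the GF libraries, and their values are given side by side for that reason. At an unadjusted p below 0.05 edgeR found 2 genes higher and 0 lower in CONVD WT larvae, where 5.06% of all genes were higher and 5.59% lower. In *Exiguobacterium* larvae it found 0 higher and 8 lower (4.35% and 4.93% of all genes), in *Chryseobacterium* larvae 2 higher and 6 lower (4.96% and 6.27%), and in CONVD mutants 0 higher and 5 lower (2.96% and 3.65%). DESeq2 called 1 gene, *mcm7*, higher in CONVD WT larvae, and 0 in each of the other 3 comparisons.

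The 95% confidence intervals show what sizes of change these libraries leave room for. The whole interval lay within a 2-fold change either way for all 49 genes in each of the 4 comparisons. It lay within a 1.5-fold change for 46 genes in CONVD, 47 in *Exiguobacterium* and 45 in *Chryseobacterium* WT larvae and for 45 in CONVD mutants, and within a 1.3-fold change for 37, 28, 26 and 33 genes in the same order. The median log2 fold change of the 49 genes was -0.052 in CONVD, -0.11 in *Exiguobacterium* and -0.14 in *Chryseobacterium* WT larvae and -0.054 in CONVD mutants, against -0.0040, 0.0032, -0.0012 and -0.0031 over all genes tested. It was below 0 for 33, 39, 38 and 29 of the 49 genes.

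**Figure D4:**
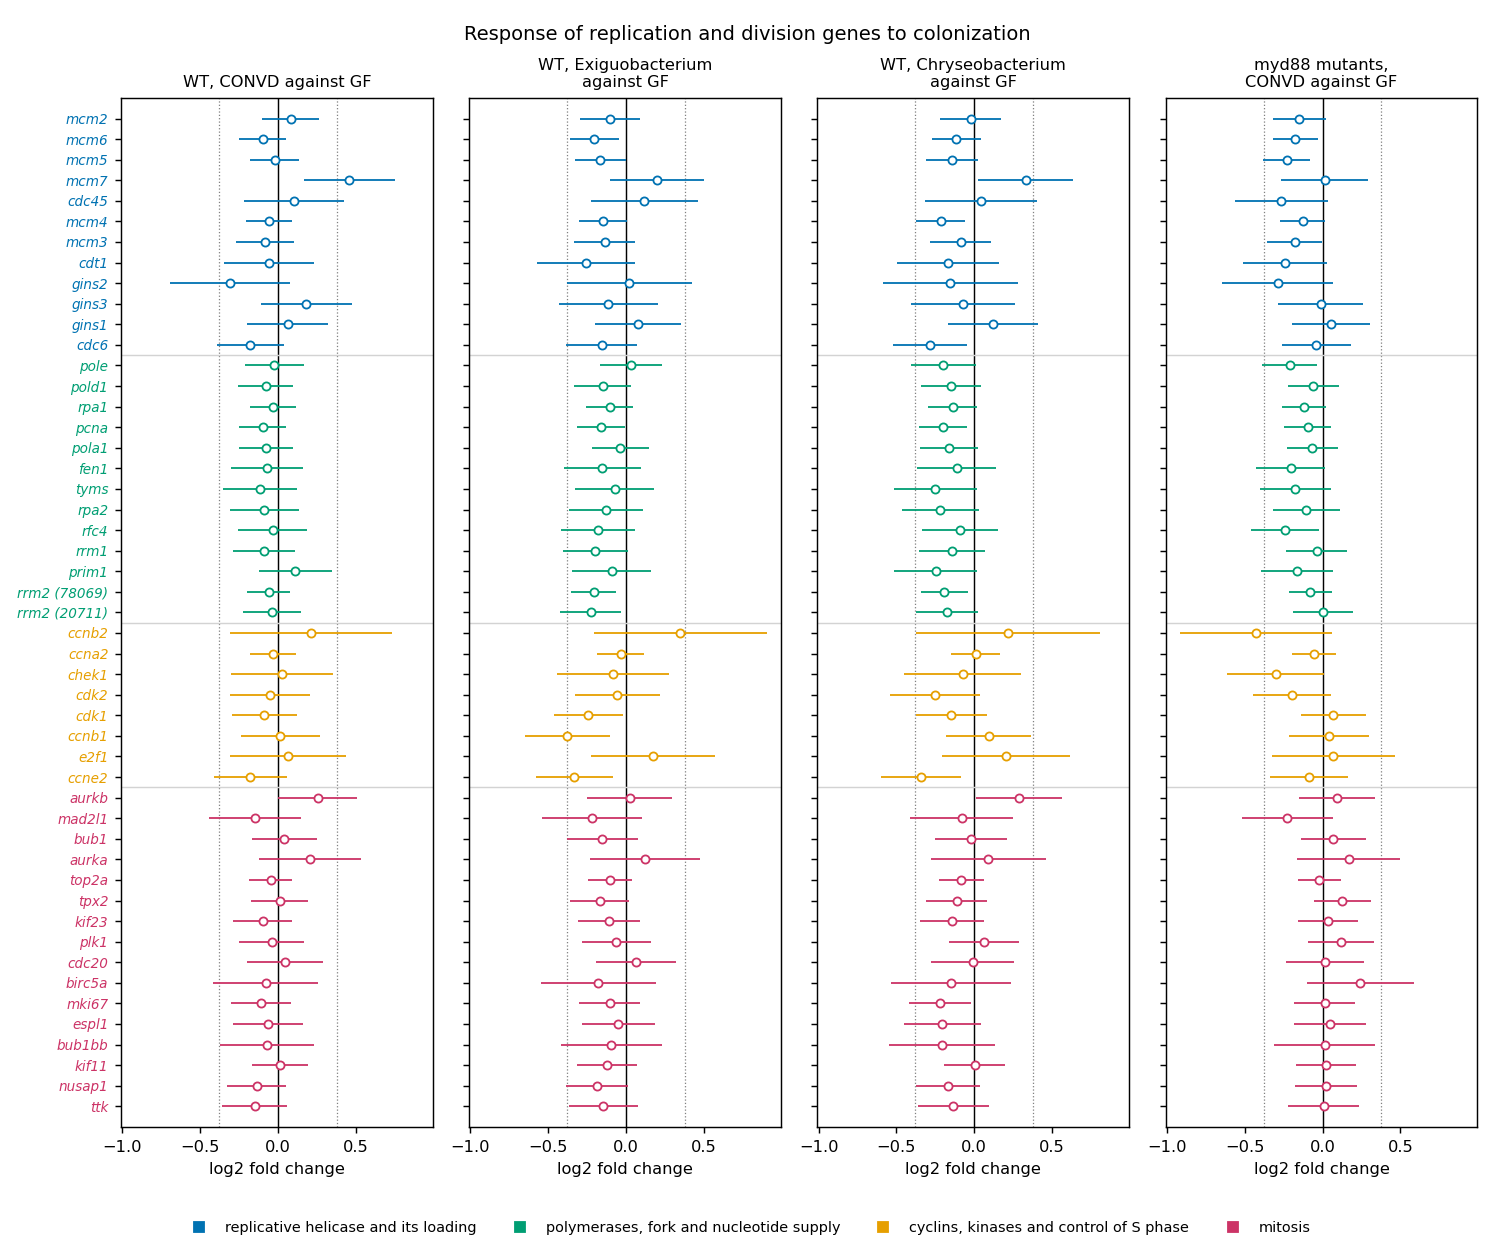
Log2 fold change of each of the 49 genes in the 4 comparisons of colonized with GF larvae, with the 95% confidence interval from edgeR, in the order of the genotype plot. All points are open because 0 genes were called; *mcm7* lies furthest to the right in CONVD WT larvae, at 0.46, and in mutants 14 of the 16 mitosis genes lie above 0, with *mad2l1* furthest below, at -0.23.

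In the comparisons with GF larvae the gene closest to a call was *mcm7*, singled out after its values were seen. It had 69.7, 57.2 and 59.3 CPM in CONVD WT larvae, against 42.1, 46.1 and 46.6 CPM in GF WT larvae. All CONVD libraries lay above all GF libraries, and the log2 fold change was 0.46 (SE 0.14, edgeR adjusted p = 0.133). The call depended on the fit: the adjusted p was 0.0128 with DESeq2, 0.0034 with edgeR on these groups alone, and 8.1e-05 without *Chryseobacterium* libraries 1 and 3, which enter the common estimate of the spread. In *Chryseobacterium* larvae the gene had 42.2, 71.6 and 52.4 CPM, overlapping GF larvae, with a fold change of 0.33 (adjusted p = 0.384) that was called without *Chryseobacterium* library 1 (0.49, adjusted p = 0.0103). In *Exiguobacterium* larvae it had 52.7, 50.4 and 51.7 CPM, all above the GF libraries, with a fold change of 0.20. In mutants it had 55.1, 55.6 and 46.7 CPM in CONVD, against 52.0, 52.6 and 51.7 CPM in GF larvae, which overlapped. The response of mutants minus that of WT larvae was -0.45 (SE 0.19, adjusted p = 0.595), and it was called with the 4 groups alone (-0.45, adjusted p = 0.0229) and without *Chryseobacterium* libraries 1 and 3 (-0.45, adjusted p = 0.0172). The other Mcm genes had fold changes between -0.10 and 0.08 in CONVD WT larvae.

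The other genes whose libraries are given above were not called in WT larvae either. The clamp gene *pcna* had 132, 143 and 153 CPM in *Chryseobacterium* and 149, 162 and 131 CPM in *Exiguobacterium* larvae, against 146, 166 and 181 CPM in GF larvae, with log2 fold changes of -0.20 (adjusted p = 0.252) and -0.16 (adjusted p = 0.52), and of -0.098 (adjusted p = 0.719) in CONVD larvae. The proliferation marker *mki67* had 139, 156 and 140 CPM in *Chryseobacterium* and 144, 174 and 155 CPM in *Exiguobacterium* larvae, with fold changes of -0.22 (adjusted p = 0.369) and -0.11 (adjusted p = 0.802). Both genes overlapped GF larvae in all 3 colonized WT groups.

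The topoisomerase gene *top2a* had 79.4, 75.5 and 78.3 CPM in *Chryseobacterium* and 78.1, 85.1 and 68.1 CPM in *Exiguobacterium* larvae, and *mcm5* had 36.7, 39.9 and 42.3 CPM and 37.8, 41.6 and 38.0 CPM in the same groups, which overlapped GF larvae. The kinase gene *cdk1* had 23.0, 22.6 and 23.7 CPM in *Chryseobacterium* larvae, all below the 24.1 to 27.0 CPM of GF larvae, with a fold change of -0.15 (SE 0.11, adjusted p = 0.683). In *Exiguobacterium* larvae it had 19.4, 26.8 and 19.5 CPM, which overlapped GF larvae. The cyclin E gene *ccne2* had 13.3, 16.6 and 13.8 CPM in *Chryseobacterium* and 16.6, 12.8 and 15.0 CPM in *Exiguobacterium* larvae, which overlapped the 15.4 to 21.3 CPM of GF larvae, with fold changes of -0.34 (adjusted p = 0.215) and -0.33 (adjusted p = 0.301).

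The cyclin gene *ccnb1* lay lower in *Exiguobacterium* than in *Chryseobacterium* larvae but was not called. It had 15.4, 16.1 and 16.6 CPM in *Exiguobacterium*, against 18.3, 23.8 and 24.0 CPM in *Chryseobacterium* larvae, with no overlap and a log2 difference of -0.47 (SE 0.13, adjusted p = 0.105). Leaving out *Chryseobacterium* library 1 brought a call (-0.58, with an adjusted p that rounds to 0.05). Against GF larvae the *Exiguobacterium* value was -0.38 (SE 0.13, adjusted p = 0.283), with 1 GF library inside the range, and it was called without GF library 1 (-0.53, adjusted p = 0.0343). Between colonized WT groups edgeR called 0 of the 49 genes in *Exiguobacterium* against *Chryseobacterium* (0.77% of all genes called), 0 in CONVD against *Exiguobacterium* (0.257%) and 0 in CONVD against *Chryseobacterium* larvae (0.116%). At an unadjusted p below 0.05 these comparisons held 2, 4 and 2 genes, where 10.8%, 7.1% and 6.1% of all genes passed, and DESeq2 called 0 in each, with an adjusted p for 44 of the 49 genes in the first and for 49 in the others.

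In mutants most replication genes lay slightly lower in CONVD than in GF larvae, with none called. All CONVD libraries lay below all GF libraries for 19 of the 49 genes, where 9.39% of all genes did so, and above them for 2, *aurka* and *tpx2* (6.91% of all genes). The 19 held 7 of the 12 helicase genes and 8 of the 13 genes of polymerases, fork and nucleotide supply. For *mcm5*, with 45.3, 45.1 and 43.0 CPM in CONVD, against 55.1, 49.4 and 52.4 CPM in GF mutants, the fold change was -0.23 (SE 0.07, adjusted p = 0.412). The fold changes of *rfc4*, *pole*, *mcm3* and *mcm6* were -0.24, -0.21, -0.18 and -0.17. Of the 16 mitosis genes 14 had a fold change above 0, with a median of 0.030, against -0.16 for the helicase genes. The exceptions were *mad2l1* (-0.23) and *top2a* (-0.021), both with every CONVD library below every GF library. All 7 gut epithelium markers also had every CONVD mutant library below every GF mutant library, with the sums given above, and their part in these values was not tested. The size of these shifts was below the fold threshold for each gene named here. Against GF WT larvae, the 13 genes of polymerases, fork and nucleotide supply had medians of -0.071 (CONVD), -0.15 (*Exiguobacterium*) and -0.18 (*Chryseobacterium*). In mutants their median was -0.10. The 12 helicase genes had medians of -0.038, -0.13 and -0.10 in the same WT groups, and the 16 mitosis genes -0.054, -0.11 and -0.098.

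The other genes of replication and mitosis gave no call on colonization either, with 0 of 52 and 0 of 72 called by edgeR in each of the 4 comparisons with GF larvae. At an unadjusted p below 0.05 with edgeR there were 3 and 5 of them in CONVD WT larvae, in either direction. There were 5 and 9 in *Exiguobacterium* and 7 and 9 in *Chryseobacterium* WT larvae, and 4 and 4 in CONVD mutants. Of all genes, 5.06% were higher and 5.59% lower at that threshold in CONVD WT larvae. The shares were 4.35% and 4.93% in *Exiguobacterium*, 4.96% and 6.27% in *Chryseobacterium* WT larvae, and 2.96% and 3.65% in CONVD mutants. Of the 28 arrest and checkpoint genes, 3 were lower in CONVD WT larvae: *btg2* (-1.89, SE 0.17, adjusted p = 2.71e-05), *cdkn1a* (-0.89, SE 0.13, adjusted p = 4.84e-05) and *ccng2* (-0.53, SE 0.09, adjusted p = 0.000311). In *Exiguobacterium* larvae 1 was lower, *cdkn1a* (-0.61), and in *Chryseobacterium* larvae 4, *cdkn1a* (-1.21), *btg2* (-1.78), *ccng2* (-0.53) and *gadd45ab* (-0.70), a growth arrest gene. In CONVD mutants 0 of the 28 were called with edgeR, and 1 had an unadjusted p below 0.05. Their log2 fold changes there ran from -0.36 to 0.19. The shares of all genes called in either direction were 1.63% in CONVD, 0.757% in *Exiguobacterium* and 1.51% in *Chryseobacterium* WT larvae. In CONVD mutants the share was 0.077%. The response of mutants minus that of WT larvae was called for 2 of the 28 with edgeR. It was 2.08 (adjusted p = 0.000962) for *btg2* and 0.67 (adjusted p = 0.00446) for *ccng2*. It was not called for *cdkn1a* or *gadd45ab*, so a different response of mutants is not shown for these genes.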

How the data were processed

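RNA of whole larvae was sequenced from 1 end for 50 nucleotides with a kit that does not mark strand. The authors mapped reads to GRCz10 with the GeneTiles server and deposited read counts per gene; the submitters' notes name Bowtie2, SAMtools and DESeq, with versions not given in the sources used here. In 9 libraries 1 unnamed last entry is not whole, so the column deposited by the authors was entered as one of estimated counts; that entry was left out, and all gene counts were used as whole numbers.

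Counts were analysed with edgeR 4.0.16 in R 4.3.3: filterByExpr (minimum count 10, total 15), TMM, robust quasi-likelihood tests over all 18 libraries with 1 coefficient per group (12 residual degrees of freedom). Genes were called at a Benjamini-Hochberg adjusted p below 0.05 over all genes tested and a fold change of at least 1.3. Each SE was derived from the edgeR fit, as the absolute log2 fold change over the square root of its F statistic. Confidence intervals are 95% and were built from these SEs with a t quantile. The fits were run on simulated data in which few genes differed between groups. Such data do not show how the fits behave where many genes differ, as between genotypes. Chi-squares of 18 pairs of libraries within groups were 1.65 to 5.48 per degree of freedom, so no library was counted as a repeat of another. Figures were drawn with matplotlib 3.10.9 in Python 3.11.15.

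Members and lists were chosen with earlier results of these data known. All members are named; values per library are given for those called (up to 6 per comparison and direction, lowest p first) and for *pcna*, *mcm5*, *ccnb1*, *cdk1*, *top2a* and *mki67*, and up to 4 called genes of each other list are named. Alternatives were DESeq2 1.42.0, RLE size factors, no filter, no fold threshold, a replicate block, the groups of a comparison alone, a fit of the 12 WT libraries, a fit that dropped *Chryseobacterium* libraries 1 and 3, each library left out and, chosen after seeing the data, libraries thinned to the smallest total.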

Additional observations from a re-analysis of the deposited data

How the results depend on the processing

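Of the 30 genotype calls among the 49 genes, 30 were kept with RLE size factors and with the replicate number as a block. The same 30 were kept with the groups of a comparison alone and without *Chryseobacterium* libraries 1 and 3. With DESeq2 29 were kept, and 29 without a filter on low counts. Dropping the fold threshold can only add calls, so that all 30 were kept there was fixed in advance. With libraries thinned to the smallest total, an alternative chosen after seeing the data, 24 were kept. The calls lost were *cdk1* in GF larvae and *cdc6*, *prim1*, *bub1bb*, *espl1* and *e2f1* in CONVD larvae. With each library left out 162 of the 180 calls were kept, and in all these alternatives 0 changed direction. Without a fold threshold the genes called were 5 higher in GF mutants and 2 higher and 19 lower in CONVD mutants, with 10418 of all genes called in CONVD mutants against CONVD WT larvae and 28 in CONVD against GF mutants. DESeq2 called 1 gene higher in CONVD WT larvae and 273 of all genes in *Exiguobacterium* against *Chryseobacterium* larvae, and of all genes it called in CONVD against *Chryseobacterium* larvae 54.1% were higher, against 37.0% with edgeR. With the groups of a comparison alone, 1 gene was called higher in CONVD WT larvae and 1 lower for the difference between responses, and all genes called were 200 in *Chryseobacterium* against GF, 143 in CONVD against GF mutants, 72 in *Exiguobacterium* against *Chryseobacterium*, 39 in CONVD against *Exiguobacterium* and 7 in CONVD against *Chryseobacterium* larvae. With the 12 WT libraries alone the last 3 were 83, 27 and 16.

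Without *Chryseobacterium* libraries 1 and 3, 1 gene (*mcm7*) was called higher in CONVD and 1 in *Chryseobacterium* against GF WT larvae (0.68, adjusted p = 8.77e-05), 1 lower for the difference between responses and 1 lower in *Exiguobacterium* against *Chryseobacterium* larvae (-0.48, adjusted p = 0.0335), where a single *Chryseobacterium* library remained and was assumed to vary like the other groups; all genes called were 32 in CONVD against GF mutants, 35 in *Exiguobacterium* and 12 in CONVD against *Chryseobacterium* larvae. Thinning gave 2 genes higher in GF mutants and 114 of all genes for the difference between responses. Replicate numbers gave no clear pairing of the libraries over all genes: correlations of deviations ran from -0.09 to 0.18, and in 0 of 9 comparisons was every pair above 0.1. Between WT groups all the correlations were positive, so a weak effect shared by libraries of the same number is not excluded. The replicate block brought 1 call, *ccnb1* in *Exiguobacterium* against *Chryseobacterium* larvae (-0.46, adjusted p = 0.0317).

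With each library left out, genes called were 13 to 17 lower and 1 to 2 higher in GF mutants, 10 to 14 lower and 0 to 1 higher in CONVD mutants, 0 to 1 higher in *Chryseobacterium* and 0 to 1 lower in *Exiguobacterium* against GF, 0 to 1 lower in *Exiguobacterium* against *Chryseobacterium*, and 0 otherwise. All genes called were 6150 to 7447 and 6376 to 6747 between genotypes in GF and CONVD larvae, 306 to 373 in CONVD, 123 to 184 in *Exiguobacterium* and 254 to 330 in *Chryseobacterium* against GF WT larvae, 2 to 13 in CONVD against GF mutants, 129 to 180 for the difference between responses, 59 to 307 in *Exiguobacterium* against *Chryseobacterium*, 24 to 78 in CONVD against *Exiguobacterium* and 18 to 54 in CONVD against *Chryseobacterium* larvae. The value of *mcm7* in *Exiguobacterium* against *Chryseobacterium* larvae, which was not called (-0.13), ran from -0.29 without *Chryseobacterium* library 1 to 0.12 (adjusted p = 0.705) without library 2. The cause of these changes was not tested. Low counts limit *ccnb2*, *e2f1* and *chek1* most.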
